A study of Saccharomyces cerevisiae with 79 samples.

Results

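The introns of Saccharomyces cerevisiae were followed here in prp2-1 cells between a nominal labelling time of 1320 s and one of 210 s, within a single time course. The labels hold 6 such libraries in 3 courses, of 79 samples in all. 2 of the 6 are used, those of replicate 1 (labelled for 1317 s and 206 s), because the columns of the later prp2-1 libraries could not be tied to samples by name. Each comparison between these times therefore rests on 1 library a side: it has no replicate check and no p-value, and an intron is counted as higher or lower where it was at least 2-fold so.

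Actively growing yeast in standard synthetic medium received 4-thiouracil, a uracil analogue that marks RNA made after its addition. Labelled RNA was biotinylated and pulled down together with labelled Schizosaccharomyces pombe RNAs added in a fixed quantity, and 308 introns and 5 of those spike-in RNAs were then counted by MPE-seq (multiplexed primer extension sequencing), which reverse transcribes from primers placed beside chosen introns. The tested strain carries the prp2-1 allele, and the strain it was set against is WT BY4741. The labels state no temperature for either. PRP2 itself is not among the targeted introns, so these counts cannot check the allele.

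Splicing removes an intron in 2 chemical steps. In the first, the branch point adenosine attacks the 5′ splice site, which leaves a free upstream exon and a lariat intermediate that still holds the intron and the downstream exon. In the second, the exons are joined and the lariat is released. Prp2 is a DEAH-box ATPase that uses ATP to remodel the spliceosome so that the first step can take place. A read counted as unspliced here covers RNA before the first step and the lariat intermediate. Lariat reads end at the branch point and are counted within the unspliced reads, and so are reads that stop downstream of it inside the intron.

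The intron ends below come from the R64 genome. They are shown for every gene with 1 annotated intron among the 10 introns named for the lowest unspliced odds (8 shown) and the 9 with a change above 0 (5 shown), and for ACT1, RPL30 and HAC1. Capitals mark the motif GTATGT at the 5′ splice site, the branch motif TACTAAC and the closing AG at the 3′ splice site, where present on the transcribed strand. Those of COX4, EFM5 intron 2, URA2, MCR1, MTR2 and YDR535C are not shown. The lowest are RPL18B at chrXIV:64019-64450 (minus strand, 432 bases), YPR170W-B at chrXVI:883388-883486 (plus strand, 99 bases), UBC5 at chrIV:569634-569723 (minus strand, 90 bases) and ERV1 at chrVII:543639-543721 (plus strand, 83 bases), and RPS16A at chrXIII:551952-552495 (plus strand, 544 bases), RPL27A at chrVIII:126552-127112 (plus strand, 561 bases), LSM7 at chrXIV:350958-351053 (plus strand, 96 bases) and RIM1 at chrIII:173116-173198 (minus strand, 83 bases). Those above 0 are DBP2 at chrXIV:414912-415913 (plus strand, 1002 bases), IMD4 at chrXIII:163309-163716 (minus strand, 408 bases), NBL1 at chrVIII:498720-498786 (minus strand, 67 bases), YKR005C at chrXI:449952-450020 (minus strand, 69 bases) and PTC7 at chrVIII:251156-251248 (plus strand, 93 bases). The other 3 are ACT1 at chrVI:54378-54686 (minus strand, 309 bases), RPL30 at chrVII:439094-439323 (plus strand, 230 bases) and HAC1 at chrVI:75840-76091 (plus strand, 252 bases).
RPL18B first bases: GTATGTattgaaatctccct
YPR170W-B first bases: GTATGTtatattttcttatt
UBC5 first bases: GTATGTtaaaaataaaatga
ERV1 first bases: GTATGTtggattacgcaaag
RPS16A first bases: GTATGTtttcagttctgcag
RPL27A first bases: gtacgtatcattttcagttt
LSM7 first bases: GTATGTttcacttcttattt
RIM1 first bases: GTATGTtatttattcttcaa
DBP2 first bases: GTATGTtaaaattttctcca
IMD4 first bases: GTATGTtataatagacaaaa
NBL1 first bases: GTATGTcacctcaccgcaac
YKR005C first bases: GTATGTacaacaaatttacc
PTC7 first bases: GTATGTttattgttttattc
ACT1 first bases: GTATGTtctagcgcttgcac
RPL30 first bases: gtcagtataacatgatttta
HAC1 first bases: ccgtgattacgatgaccagg
RPL18B branch motif to end: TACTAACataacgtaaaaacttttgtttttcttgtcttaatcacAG
YPR170W-B branch motif to end: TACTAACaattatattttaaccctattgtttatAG
UBC5 branch motif to end: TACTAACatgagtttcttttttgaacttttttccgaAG
ERV1 last bases: tttattaacaaattctctataatAG
RPS16A branch motif to end: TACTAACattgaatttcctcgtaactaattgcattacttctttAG
RPL27A branch motif to end: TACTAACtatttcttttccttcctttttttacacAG
LSM7 branch motif to end: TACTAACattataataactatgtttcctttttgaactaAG
RIM1 branch motif to end: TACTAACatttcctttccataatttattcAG
DBP2 branch motif to end: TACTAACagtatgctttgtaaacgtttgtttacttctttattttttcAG
IMD4 last bases: aacaagtacatctttttgaacacAG
NBL1 branch motif to end: TACTAACacaacctcAG
YKR005C last bases: tattactgacaagatccatgtgaAG
PTC7 last bases: gagactaacttttctcatatcatAG
ACT1 branch motif to end: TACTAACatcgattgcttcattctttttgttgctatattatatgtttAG
RPL30 branch motif to end: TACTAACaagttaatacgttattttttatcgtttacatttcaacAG
HAC1 last bases: atggacggcttgcttgtactgtccg
Of the 8 lowest shown, 7 open with GTATGT and 7 hold TACTAAC; RPL27A opens otherwise and ERV1 has no match to the branch motif. Of the 5 above 0 shown, 5 open with GTATGT and 3 hold TACTAAC. IMD4 holds it farther upstream than the bases printed. The RPL30 intron opens with a sequence other than GTATGT, and the HAC1 intron, which the endonuclease Ire1 and a tRNA ligase remove in place of the spliceosome, has neither motif. Among the 258 targets with 1 annotated intron, 72.1% open with GTATGT and 82.9% hold TACTAAC on the transcribed strand. A match is a description of letters and does not show a site.

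The used libraries differed in depth. All reads numbered 4440617 at 1320 s and 1413604 at 210 s, and the labelled libraries of the course ranged up to that of 1320 s from 388817 at 120 s. Spike-in reads numbered 10377 at 1320 s and 57844 at 210 s. The 0 s library of the course, taken before label, gave 1.92 target reads per spike-in read, which was 0.451% of the value at 1320 s and 8.21% of that at 210 s. A second 0 s library gave 0.933. Intervals on shares below are 95% Wilson intervals on read counts, each from 1 library, and do not cover the spread between libraries. No molecular identifiers are stated for these reads, so repeated copies of the same molecule may make the intervals too narrow.

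Unspliced reads made up a smaller share of nearly every intron's reads at the later time. Of 308 introns, 256 passed the filter on low counts (a mean of at least 20 unspliced and 100 total reads over both libraries), and the odds of an unspliced against a spliced read were at least 2-fold lower at 1320 s in 204 of them (79.7%) and at least 2-fold higher in 1 (0.391%). The median log2 change of the odds was -2.04, with quartiles of -2.63 and -1.25. Scaled with TMM factors for each read state, which shift every intron by the same amount and so take out what most introns share, 37 introns were lower and 45 higher, with a median of -0.16. The median unspliced share of introns with at least 100 reads was 2.07% at 1320 s and 6.46% at 210 s. Across the course the 120 s library had 12.8%, the 160 s library 8.55%, the 300 s library 5.89% and the 390 s library 3.96%. The 540 s library had 3.89%, the 720 s library 3.27% and the 990 s library 3.07%. The median was thus lower at each time than at the one before, but over sets of introns that differed between libraries. At least 100 reads were held by 226 introns at 120 s and 273 at 1320 s.

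**Figure D1:**
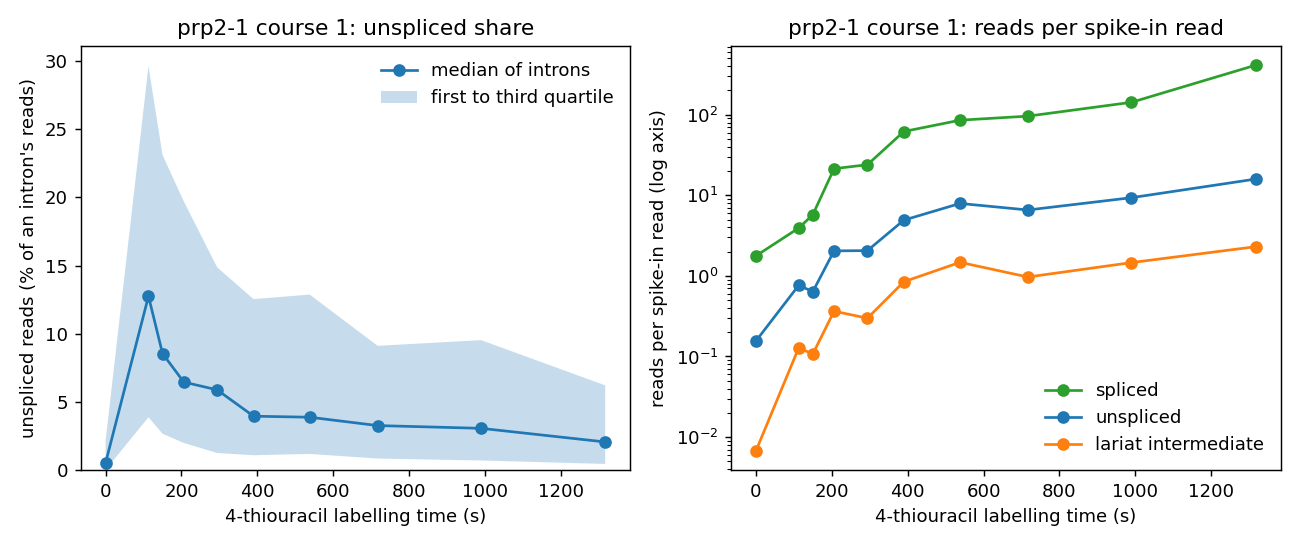
Left, the median unspliced share of introns with at least 100 reads (percent, y axis) against labelling time (s, x axis) in prp2-1 course 1, with the band from the first to the third quartile. Right, spliced, unspliced and lariat intermediate reads per spike-in read (log y axis) in the same libraries; the share is 2.07% at 1320 s and 6.46% at 210 s while all 3 kinds of read per spike-in read are higher at 1320 s.

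The pair of 990 s and 300 s in the same course shares no library with the pair of 1320 s and 210 s. 226 of the 256 introns had the same sign in both, and 189 of the 204 introns at least 2-fold lower were lower there too. The median log2 change of all 256 in that pair was -0.82, so lower values were common there among all introns. The 189 are to be read against that and do not set the 204 apart. Over the 256 introns the changes in the pairs had a Pearson r of 0.41. Both pairs come from 1 course, so the second pair is not a second course.

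The lowest odds at 1320 s relative to 210 s were those of RPL18B, which encodes a protein of the large ribosomal subunit. Its unspliced share was 48.9% at 1320 s (interval 47.3 to 50.5%) and 95.4% at 210 s (94.9 to 95.9%), a log2 change of -4.44. Between these times the 540 s library had 92.9%, the 720 s library 86.6% and the 990 s library 66.7%, so most of the difference lies after 540 s. The 0 s library of the course, taken before label, had 95.9%, near the share at 210 s. Over all introns, 2295 of the 2566 unspliced reads at 0 s ended between branch point and 3′ splice site. At 210 s these were 32374 of 118199. How far unlabelled RNA enters the shares of this intron was not tested.

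COX4, a subunit of cytochrome c oxidase, had 0.488% unspliced reads at 1320 s (0.366 to 0.65%) and 8.65% at 210 s (7.37 to 10.1%), a log2 change of -4.26. UBC5, a ubiquitin-conjugating enzyme, had 2.98% at 1320 s (2.27 to 3.9%) and 32.1% at 210 s (27.2 to 37.4%), a log2 change of -3.93. ERV1, a sulfhydryl oxidase of the mitochondrial intermembrane space, had 9.09% at 1320 s (6.86 to 11.9%) and 58.4% at 210 s (52.2 to 64.3%), a log2 change of -3.79. These 3 introns were named for the size of their change, so their intervals are no separate support for it.

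RPS16A, a protein of the small ribosomal subunit, had 0.0398% unspliced reads at 1320 s, 54 of 135553, and 0.534% at 210 s, 159 of 29759. RPL27A had 0.382% at 1320 s and 4.65% at 210 s. LSM7, part of the Lsm ring that binds U6 snRNA, had 1.32% at 1320 s and 13.8% at 210 s, and RIM1, which binds single-stranded DNA in mitochondria, had 8.15% at 1320 s and 50.6% at 210 s. YPR170W-B had 1.77% at 1320 s and 22.7% at 210 s, and EFM5 intron 2 had 6.33% at 1320 s and 45.0% at 210 s. These 6 log2 changes ran from -4.01 for YPR170W-B to -3.53 for RIM1.

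URA2, the bifunctional enzyme that opens pyrimidine synthesis, was the only intron at least 2-fold higher under the filter. Its unspliced share was 18.3% at 1320 s (16.6 to 20.1%) and 6.41% at 210 s (5.4 to 7.59%), a log2 change of 1.71, and it was 11.2% at 990 s and 6.43% at 300 s. 9 introns in all had a log2 change above 0. Among them DBP2, an RNA helicase whose intron takes part in its own regulation, had 57.5% at 1320 s (51.9 to 63%) and 44.8% at 210 s (38.6 to 51.1%), a log2 change of 0.74. MCR1, a mitochondrial NADH-cytochrome b5 reductase, had 75.4% at 1320 s and 70.0% at 210 s, and MTR2, an mRNA export factor, had 89.6% at 1320 s and 87.7% at 210 s. NBL1, a subunit of the chromosomal passenger complex, had 3.19% at 1320 s and 2.52% at 210 s.

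**Figure D2:**
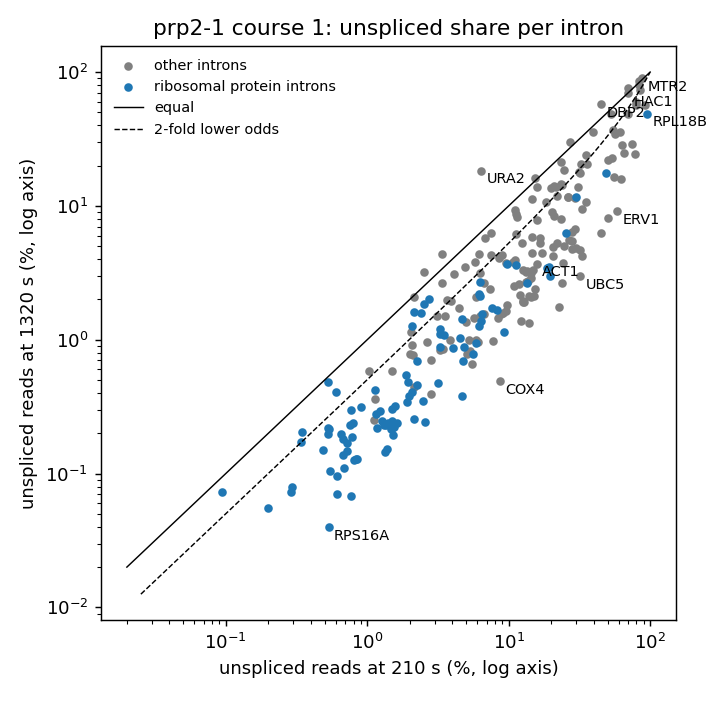
Unspliced share of each of the 256 introns at 1320 s (percent, log y axis) against 210 s (percent, log x axis) in prp2-1 course 1, ribosomal protein introns in blue and others in grey. The solid line is equality and the dashed line 2-fold lower odds; 204 introns lie at or below the dashed line, RPL18B and COX4 among them, and URA2 lies farthest above equality.

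HAC1, a transcription factor of the unfolded protein response, had a nearly level share, 69.8% at 1320 s (69.2 to 70.5%) and 70.3% at 210 s (69.2 to 71.4%), with no lariat read among 13994 unspliced reads at 1320 s and 4919 at 210 s. Over the labelled times its share stayed between 67.5% at 120 s and 71.8% at 160 s. The U3 snoRNA genes also moved little: SNR17B had 2.07% at 1320 s and 2.14% at 210 s, and SNR17A had 4.39% at 1320 s and 6.12% at 210 s. SNR17A and SNR17B are near-identical copies, so that reads may be shared between them.

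ACT1, which encodes actin, had 3.71% unspliced reads at 1320 s (3.54 to 3.89%) and 15.8% at 210 s (15.1 to 16.6%). RPL30, whose protein binds its own transcript and inhibits its splicing, had 0.943% at 1320 s and 5.92% at 210 s. YRA1, an mRNA export adaptor that limits its own splicing, had 56.8% at 1320 s and 78.9% at 210 s. UBC4, another ubiquitin-conjugating enzyme, had 1.93% at 1320 s and 12.8% at 210 s, and RPS14B had 2.20% at 1320 s and 6.18% at 210 s. GCR1, a transcriptional activator of glycolytic genes, had 72.8% at 1320 s and 84.8% at 210 s, a log2 change of -1.05 that had the opposite sign, 0.21, with 300 s in place of 210 s.

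Both alpha-tubulin genes were lower. TUB1 had 9.56% unspliced reads at 1320 s and 32.8% at 210 s, and TUB3 had 2.10% at 1320 s and 14.3% at 210 s. SUS1, a subunit of the SAGA and TREX-2 complexes, has a pair of targeted introns. SUS1 intron 1 had 35.9% at 1320 s and 61.3% at 210 s, and SUS1 intron 2 had 29.2% at 1320 s and 74.5% at 210 s.

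**Figure D3:**
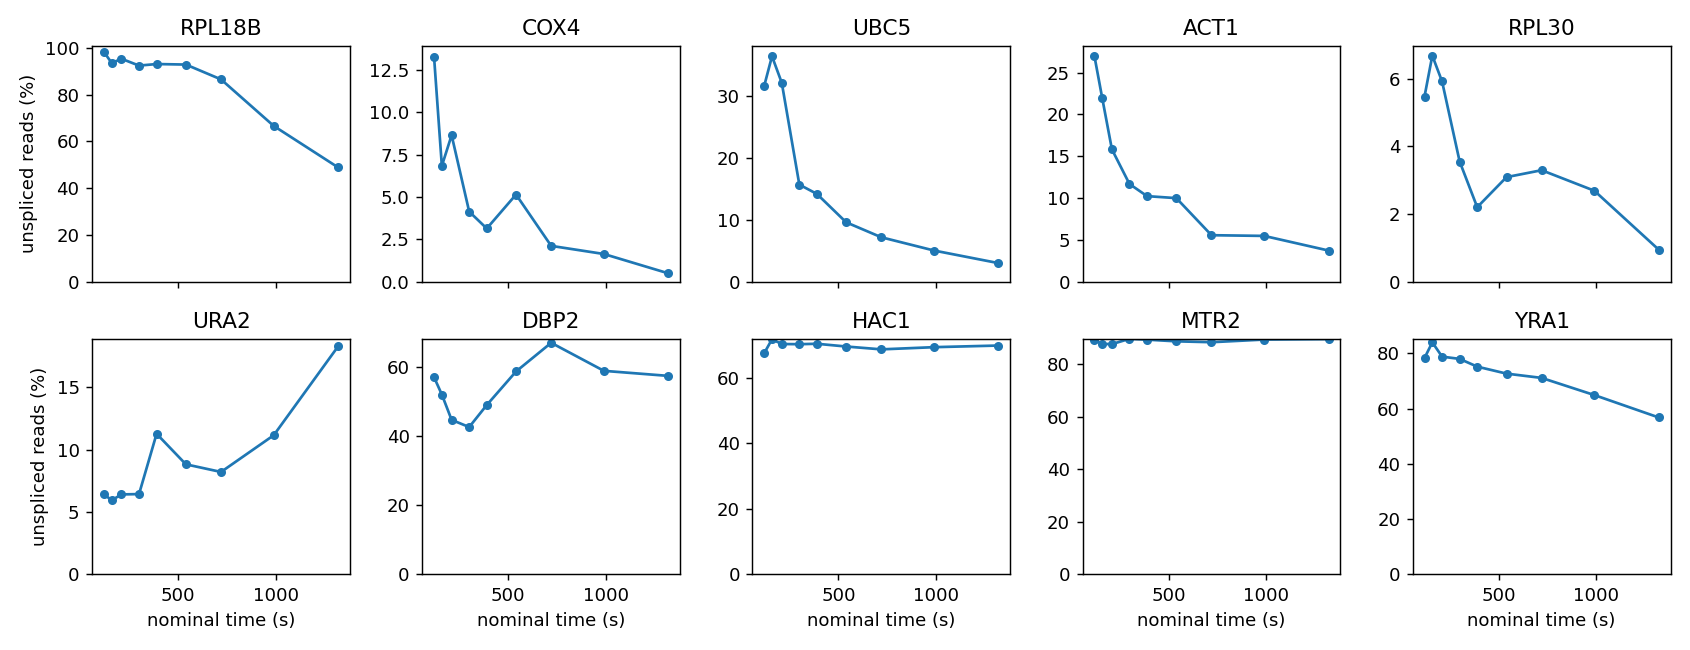
Unspliced share (percent, y axis, each panel from 0) of 10 introns against nominal time (s, x axis) over the 9 labelled libraries of prp2-1 course 1, 1 point a library. RPL18B is at 48.9% at 1320 s against 95.4% at 210 s, URA2 at 18.3% against 6.41%, and HAC1 at 69.8% against 70.3%.

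Ribosomal protein introns had low shares at both times. Many ribosomal protein genes have near-identical copies, among which reads may be split uncertainly. The median share of the 97 tested was 0.345% at 1320 s and 1.63% at 210 s, with 87 at least 2-fold lower and a median log2 change of -2.28. The other 159 introns had a median share of 4.34% at 1320 s and 14.5% at 210 s, with 117 at least 2-fold lower and 1 higher and a median of -1.72. By subunit, 50 of 55 large subunit introns were lower (median -2.29) and 37 of 42 small subunit introns (median -2.12).

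The other groups are read against 79.7% lower and a median of -2.04 over all introns. All 11 actin and tubulin introns were lower (median -2.29), and so were all 8 of ubiquitin-like conjugation (median -2.83) and 14 of 15 secretory introns (median -2.45). Of the self-regulated genes 6 of 7 were lower (median -1.85), of the snoRNA hosts 8 of 10 (median -2.21), and of the mitochondrial genes 6 of 8 (median -2.12). Among spliceosome components 4 of 5 were lower (median -1.45), and among genes of mRNA export and decay 4 of 6 (median -1.50). Both translation factor introns (median -2.48) and both tested meiotic introns of 15 (median -1.45) were lower, and neither of the 2 U3 snoRNA introns (median -0.28). None of these groups beyond the ribosomal, actin, secretory and snoRNA host lists had more than 8 tested members.

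Intron features the rule did not use were set beside the shares. Among the 215 tested targets with 1 annotated intron, 77.7% of the 179 at least 2-fold lower opened with GTATGT, against 69.4% of the other 36. TACTAAC was found in 85.5% of the 179 and in 72.2% of the 36. Median intron length was 168 bases in the 179 and 92 bases in the 36, and the median distance from the branch adenosine of the motif to the 3′ splice site was 35 bases and 31 bases in those holding it. These are descriptions of groups that the shares define, with no test. Over all tested introns, 87 of 97 ribosomal protein introns and 117 of 159 others were at least 2-fold lower. The features were not compared within either class.

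Lariat intermediate reads made up a somewhat smaller part of the unspliced reads at 1320 s. The filter (20 unspliced and 5 lariat reads on average over both libraries) kept 188 introns, of which 46 (24.5%) had at least 2-fold lower odds of a lariat read at 1320 s and 6 (3.19%) at least 2-fold higher, with a median log2 change of -0.36. Since the filter takes the mean of both libraries, an intron with lariat reads mainly at 1320 s or mainly at 210 s could pass. Such an intron is then likely to be counted, so both counts are partly set by the filter. Where an intron had at least 20 unspliced reads, the median lariat share was 10.7% at 1320 s and 14.9% at 210 s. The order over time was not steady: the 540 s library had a median of 15.4%, the 720 s library 10.7% and the 990 s library 11.8%. In the pair of 990 s and 300 s, 108 of the 188 introns had the same sign, and the median was 0.07. TMM factors for each read state shift every intron by the same amount and place the median near 0 by construction, so their median of 0.25, with 21 introns lower and 30 higher, says nothing of the shared direction.

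RPL27B, a large subunit protein, had 34 lariat reads of 171 unspliced reads at 1320 s, 19.9% (14.6 to 26.5%), and 144 of 199 at 210 s, 72.4% (65.8 to 78.1%). RPL26A had 12.9% at 1320 s (7.54 to 21.2%) and 54.6% at 210 s (44.7 to 64.2%). YOS1 intron 1, in a gene of transport from the endoplasmic reticulum, had 16.9% at 1320 s (9.72 to 27.8%) and 71.1% at 210 s (55.2 to 83%), from 65 and 38 unspliced reads. Because these introns were picked for their large lariat change, the intervals do not add support to it.

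RPL16B had 10.7% lariat reads at 1320 s and 37.4% at 210 s, and ARF2, a small GTPase of vesicle traffic, had 10.4% at 1320 s and 31.5% at 210 s. SUS1 intron 1 had 7.46% at 1320 s and 33.1% at 210 s, and TUB1 16.0% at 1320 s and 36.6% at 210 s. PSP2 (-3.39), RPL22B (-2.71) and SUS1 intron 1 (-2.61) had lower log2 changes than most of the 10 named but were not lower at 990 s against 300 s, and PSP2 and RPL22B had 1 lariat read each at 1320 s. The others of the 10 lowest that were also lower at 990 s against 300 s rested on few lariat reads at 1320 s: 1 for ASC1, 4 for NBL1, 7 for GPI15, 5 for YDL012C and 6 for URA2. DBP2 had 14.5% at 1320 s and 38.3% at 210 s.

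Those higher were also thin. TUB3 had 29 lariat reads of 317 unspliced reads at 1320 s, 9.15% (6.45 to 12.8%), and 12 of 424 at 210 s, 2.83% (1.63 to 4.88%). RPL23B, which was also higher but lower at 990 s against 300 s and was named after its values were seen, had 36 of 131 at 1320 s and 17 of 155 at 210 s. PCC1 had 12 lariat reads at 1320 s and 0 at 210 s, and RPL37A had 8 at 1320 s and 2 at 210 s. RPL21B had 8 at 1320 s and 7 at 210 s, and HRB1 had 8 at 1320 s and 4 at 210 s. MCR1, with the most lariat reads of the introns named here, had 71.3% at 1320 s (70.6 to 72.1%) and 59.1% at 210 s (57.8 to 60.3%). ACT1 had 34.2% at 1320 s (31.9 to 36.6%) and 30.0% at 210 s (27.7 to 32.4%).

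**Figure D4:**
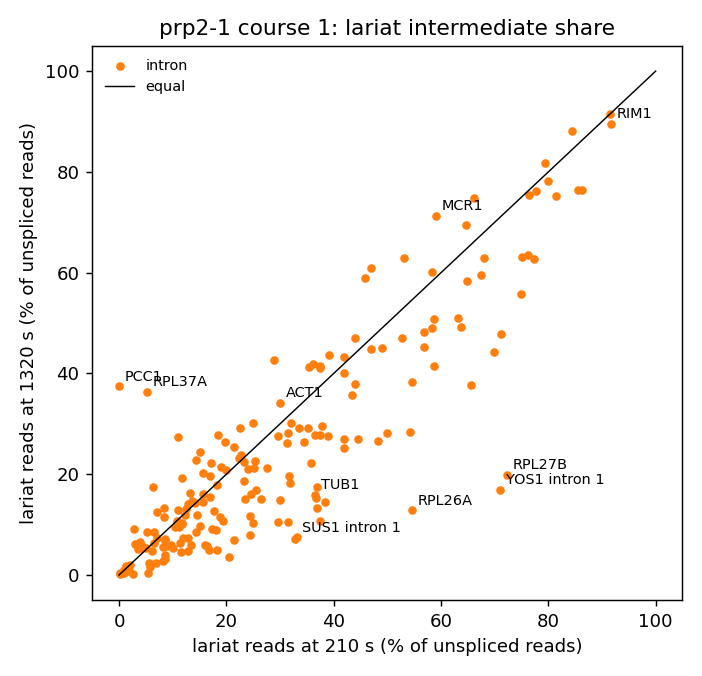
Lariat intermediate reads as a percent of unspliced reads at 1320 s (y axis) against 210 s (x axis) for the 188 introns past the filter in prp2-1 course 1, 1 point an intron, with the line of equality. RPL27B and RPL26A lie far below the line, MCR1 lies above it at 71.3% against 59.1%, and most points lie below it.

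Over all 188 introns 24.5% were lower and 3.19% higher, and the groups are read against those shares. These shares and the group counts include introns that passed the filter mainly through the library where they were high. Of the ribosomal proteins, 13 of 42 large subunit introns had at least 2-fold lower lariat odds and 3 higher (median -0.73), and 7 of 32 small subunit introns had lower and 0 higher (median -0.58), beside a median of -0.36 over all. Of the others, 2 of 6 self-regulated (median -0.27), 2 of 8 snoRNA host (median -0.03), 2 of 12 secretory (median -0.40) and 2 of 6 mRNA export and decay introns (median -0.52) were lower, with none higher. Of 10 actin and tubulin introns 2 were lower and 1 higher (median -0.13). Of 3 spliceosome introns 1 was lower (median -0.34), and of 2 translation factor introns 1 (median -1.22). None of 5 ubiquitin-like conjugation (median -0.13), 6 mitochondrial (median -0.30) or 1 meiotic introns (median 0.67) passed 2-fold.

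Relative to the spike-in RNAs, the amount of labelled RNA was higher at 1320 s in every state of splicing. Target reads per spike-in read were 426.9 at 1320 s and 23.4 at 210 s, a ratio of 18.2. Spliced reads were 19.2 times as many per spike-in read, unspliced reads 7.77 times and lariat reads 6.31 times. Thus unspliced RNA per spike-in read was higher while its share was lower. Per intron, 239 of 256 (93.4%) were at least 2-fold higher in unspliced reads per spike-in read and 0 of 256 (0%) at least 2-fold lower, with a median log2 change of 2.37. TMM factors in place of spike-in reads shift every intron alike and centre the changes, and 25 were then lower and 38 higher. The 5 spike-in RNAs differed among themselves: the unspliced ratio was 5.15 to 22.4 by single RNA, 22.4 for SPBP8B7.06 and 5.15 to 8.08 for the other 4.

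The highest were ARF2, with 2921 unspliced reads at 1320 s and 501 at 210 s (log2 change per spike-in read 5.02), and APE2, an aminopeptidase, with 12032 at 1320 s and 2084 at 210 s (5.01). GIM4 (4.59), AIM11 (4.57), RPL43A (4.43), ATG44 (4.29), YJR112W-A (4.19), MMS2 (4.14), PTC7 (4.12) and USV1 (4.11) followed. RPL18B was at 0.34 and COX4 at 0.88, and GOT1, with 8 unspliced reads at 1320 s and 58 at 210 s, was the only intron below 0, at -0.30. By group, 88 of 97 ribosomal protein introns were at least 2-fold higher (median 1.86), and 151 of 159 others (median 2.55).

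The composition of the labelled targets also differed. After TMM scaling, 27 of 270 targets (10%) held at least 2-fold fewer of all reads at 1320 s and 23 (8.52%) at least 2-fold more, with a median of 0.02. GOT1, a Golgi protein, had 253 reads at 1320 s and 922 at 210 s (log2 change -3.53), and RPL18B 3640 at 1320 s and 8234 at 210 s (-2.84). YDR535C (-3.18), ECM33 (-2.50), MPT5 (-2.35), GCR1 (-2.28), NOG2 (-2.27), MAY24 (-2.11), CGI121 (-1.89) and SPT14 (-1.86) were the other lowest. SNC1, a vesicle SNARE, had 5210 reads at 1320 s and 384 at 210 s (2.10). ATG44 (1.65), YOS1 intron 1 (1.64), SFT1 (1.63), MMS2 (1.62), YOS1 intron 2 (1.60), MRA1 (1.52), PRE3 (1.42), PAL2 (1.37) and UBC13 (1.35) were the other highest. SNR17A was at -1.39 and SNR17B at -1.42.

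Over all 270 targets 8.52% were higher in composition and 10% lower. Beside this, 4 of 8 ubiquitin-like conjugation targets were higher (median 0.95), and 3 of 16 secretory targets (median 0.23). The number higher depended on the earlier library: with 300 s in place of 210 s, 3 targets in all were at least 2-fold higher. Of the 23 higher against 210 s, 20 were above 0 at 990 s against 300 s. The group counts are given for 210 s only. Both U3 snoRNA targets were lower (median -1.40). Of 7 self-regulated targets 2 were lower and none higher (median -0.23). Of 7 targets of mRNA export and decay 2 were lower and none higher (median -0.41), and YRA1 is in both lists. Of 59 large subunit targets 1 was lower and none higher, and of 45 small subunit targets 2 were lower and 1 higher. Each direction here is relative to the other targets. Scaling to spike-in reads adds the same amount to every target, and on it 268 of 270 targets were at least 2-fold higher at 1320 s and none lower, with a median of 4.16.

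Whether the change with time differed between prp2-1 and WT was asked at 990 s against 210 s, with 1 prp2-1 course and 3 WT courses. Among 267 introns, a quasi-likelihood fit in edgeR, adjusted by Benjamini-Hochberg, found 0 (0%) with a difference past an adjusted p of 0.05, and 35 at an unadjusted p under 0.05, 29 of them with a higher change in prp2-1. The count of 35 was 47 without WT course 1, 18 without WT course 2 and 23 without WT course 3. The smallest adjusted p was 0.172. The median log2 change of an intron's unspliced odds was -1.28 in prp2-1 course 1, against -2.03, -1.56 and -1.56 in WT courses 1, 2 and 3. The spread comes from WT alone, and prp2-1, with 1 course, is taken to have the same spread. HMRA1 intron 1, among the 267, had no prp2-1 reads at 210 s, so its difference (SE 15741) is not an estimate.

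The smallest p-values were those of RPS6B, DBP2 and ECM9. RPS6B (log2 difference 3.12) had very low unspliced shares in prp2-1, 0.0897% at 990 s and 0.0934% at 210 s. In WT they were 0.0470 ± 0.0289% and 0.386 ± 0.0637%. ECM9 went the other way (-2.15), with 4.43% at 990 s and 24.6% at 210 s in prp2-1. In WT it had 7.51 ± 1.77% and 11.1 ± 1.91%. DBP2 had an unspliced share of 59.0% at 990 s in prp2-1, against 14.5 ± 1.27% in WT (SD, n = 3), and of 44.8% at 210 s in prp2-1, against 29.0 ± 5.78% in WT. Its log2 difference in change was 2.09 (SE 0.54), with an adjusted p of 0.172 by edgeR. With 720 s in place of 990 s, 2 introns passed, DBP2 (difference 3.08, adjusted p 0.0033 by edgeR) and RPS6A (difference 3.25, adjusted p 0.0475). MCR1 had 76.5% at 990 s in prp2-1, against 51.0 ± 1.60% in WT, and 70.0% at 210 s in prp2-1, against 49.2 ± 5.15% in WT; its difference in change was 0.37 (SE 0.54).

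**Figure D5:**
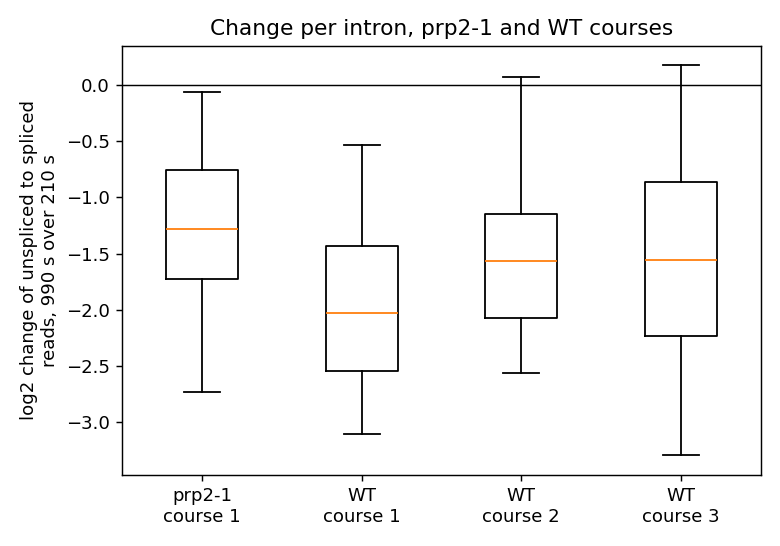
Log2 change of the odds of unspliced against spliced reads at 990 s over 210 s (y axis) for 267 introns in prp2-1 course 1 and WT courses 1, 2 and 3 (x axis); boxes span the quartiles with the median in orange, and whiskers the 5th to 95th percentile. The medians are -1.28 in prp2-1 and -2.03, -1.56 and -1.56 in WT.

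The same difference between the strains was also fitted for lariat against other unspliced reads and for all reads per target, both added after seeing the data. In each, 0 introns passed an adjusted p of 0.05 by edgeR, 0 of 220 (0%) for lariat reads with 19 at an unadjusted p under 0.05, and 0 of 271 (0%) for all reads with 40. The count for all reads depended on WT courses: 17 targets passed without WT course 1, 1 (HOP2 intron 2) without WT course 2, and 19 without WT course 3. The counts at an unadjusted p under 0.05 without WT courses 1, 2 and 3 in turn were 31, 11 and 18 for lariat reads and 61, 20 and 54 for all reads.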

How the data were processed

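MPE-seq libraries of 4-thiouracil-labelled RNA were mapped by the submitters, whose processing notes name STAR 2.7.2b and R64; how reads were assigned to introns is not given in the sources used here. The authors deposited whole-number counts per intron, without scaling, for all, unspliced, lariat intermediate and branch-to-3′-splice-site reads, and these counts were the input. Of the columns of each prp2-1 file, 18 were not used, because their names could not be tied to the samples. Spliced reads are all less unspliced reads.

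Within the course, log2 changes of odds used a pseudocount of 0.5 reads per state, TMM scaling (edgeR 4.0.16, R 4.3.3) for composition, and spike-in reads for amounts. The tests planned over 3 prp2-1 courses could not be made with 1, so the 2-fold threshold took their place, and the introns named are up to 10 each way among those past it that moved the same way at 990 s against 300 s, plus 17 named whatever their values; both rules were chosen after values had been seen. Members and lists were chosen with earlier results of these data known. The strain difference used edgeR's quasi-likelihood test with course as a block. It was also run on simulated counts, drawn with a fixed dispersion and no difference between courses. Such counts cannot show how the test behaves with the spread of real courses. Libraries were paired by the replicate number in the labels. Deviations of same-course WT libraries correlated weakly in courses 1 and 2 (0.151 and 0.174) and more in course 3 (0.435). Whether courses were separate cultures is not given in the sources used here, so a p-value reflects only the spread among the courses compared, which may be technical. Symbols come from RefSeq R64 and matched 303 of 308 row IDs; introns read from RefSeq R64 opened with GT in 96.5% and closed with AG in 99.2%.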

Additional observations from a re-analysis of the deposited data

How the results depend on the processing

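No paired analysis was possible because 1 prp2-1 course was left for 1320 s against 210 s; DESeq2, limma and leaving out a course were not run there for the same reason. The planned fit of all labelled libraries has nominal time as a factor, which with 1 library a time leaves no residual degrees of freedom; a trend over labelling time was not run. For the strain difference the fit with no replicate block gave 0 calls, as did each fit without 1 WT course, no filter and count minimums raised 5 times, against 2 with 720 s in place of 990 s. For the added lariat difference, 1 intron (TDA5) passed with count minimums raised 5 times; for all reads 1 to 19 passed when a WT course was left out. The cause of each was not tested except where stated.

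Unspliced odds kept a negative median under each alternative run: it was -1.30 with 990 s in place of 1320 s, and -0.16 with TMM factors per read state, which by construction centre each state and so remove a change shared by most introns. With those factors 37 introns were at least 2-fold lower and 45 higher, and GCR1 (0.83), RPS14B (0.33), SUS1 intron 1 (0.38) and YRA1 (0.38) reversed by that same shift. GCR1 reversed also with 300 s in place of 210 s (0.21). The number lower was 113 with count minimums raised 5 times, where fewer introns were tested. The number higher was 5 without a filter, where more introns were tested, and 2 without branch-to-3′-splice-site reads.

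For lariat odds, 78 were lower and 24 higher without a filter, where more introns were tested. With count minimums raised 5 times, where fewer introns were tested, 21 were lower and 1 higher. These counts are therefore not shares of the same set. With 990 s in place of 1320 s 10 were higher. With 300 s in place of 210 s 26 were lower and 11 higher, and GPI15 reversed (0.031). With TMM factors per read state 21 were lower and 30 higher and the median reversed (0.25), by the same construction. Without branch-to-3′-splice-site reads 2 were higher.

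For composition, 43 targets were lower without a filter, where more targets were tested, and 3 higher with 300 s in place of 210 s. On spike-in reads 0 were lower and 268 higher (median 4.16), and since this scaling adds the same amount to every target, the signs below carry no information on single targets: CGI121 (2.25), DBP2 (2.80), ECM33 (1.64), GCR1 (1.86), GOT1 (0.62), MAY24 (2.03), MPT5 (1.79), NOG2 (1.87), RPL18B (1.30), SNR17A (2.76), SNR17B (2.72), SPT14 (2.28), YDR535C (0.96) and YRA1 (2.39). For unspliced reads per spike-in read, 1 was lower without a filter, where more introns were tested. With count minimums raised 5 times, where fewer introns were tested, 134 were higher. The median was 1.58 with 990 s in place of 1320 s. TMM factors there shift every intron by the same amount, which fixes the signs: they gave 25 lower and 38 higher (median 0.026), with negative values for GCR1 (-0.70), RPL30 (-0.17), SNR17A (-0.069), SUS1 intron 2 (-0.061), TUB3 (-0.28), UBC4 (-0.18) and YRA1 (-0.42). Depth limits the lariat values most, since many rest on under 20 lariat reads.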
